A study of Mus musculus with 12 samples.

Results

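The genes described here encode the proteins that coat, fuse and build lipid droplets in fat: the CIDE genes Cidea and Cidec, the perilipin genes Plin1 to Plin5, the seipin gene Bscl2, and Fitm1 and Fitm2, which encode the fat storage-inducing transmembrane proteins (FIT proteins). They were chosen by symbol, as the rows of the deposited table that carry these names, and all 10 were present among 25229 genes with a symbol. RNA was sequenced from epididymal white adipose tissue (eWAT, a visceral fat pad) of C57BL/6 mice in 4 groups of 3 libraries. HFD_TKO mice carried the genotype labelled TET KO and were fed a high-fat diet, HFD_WT mice were wild type on the same diet, ND_TKO mice were TET KO on a normal diet, and ND_WT mice were wild type on a normal diet. TET proteins are the enzymes that oxidise 5-methylcytosine in DNA. The series title places their loss in adipocytes. Which Tet genes were deleted, the driver of the deletion, and the sex, age and time on diet were not stated in the labels. The labels call the 3 libraries of a group biological replicates.

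In a white adipocyte, triglyceride is held in a single large droplet bounded by a phospholipid monolayer. Droplets are born in the endoplasmic reticulum (ER), where seipin and the FIT proteins organise the emerging droplet. Perilipins then coat the surface and control the access of lipases, and the CIDE proteins join droplets at their contact sites and move lipid from the smaller to the larger droplet. Perilipin 1 and CIDEC are typical of mature adipocytes, whereas perilipin 2 coats droplets in many cell types, including macrophages that have taken up lipid.

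TET enzymes act on methylated cytosines in CpG dinucleotides, so stretches upstream of 5 droplet genes whose levels are compared here are shown with each CpG in capitals. They were taken from RefSeq windows on GRCm38.p6 (the assembly of mm10) and end upstream of the start of the gene in both RefSeq and GENCODE M21, whichever lies further 5′.
Cidec, chr6:113435761-113436010, minus strand: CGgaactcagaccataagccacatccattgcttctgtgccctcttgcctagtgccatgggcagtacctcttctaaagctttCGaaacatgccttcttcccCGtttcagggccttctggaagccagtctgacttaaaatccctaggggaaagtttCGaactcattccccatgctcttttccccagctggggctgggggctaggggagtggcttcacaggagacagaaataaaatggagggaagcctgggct
Plin1, chr7:79732905-79733026, minus strand: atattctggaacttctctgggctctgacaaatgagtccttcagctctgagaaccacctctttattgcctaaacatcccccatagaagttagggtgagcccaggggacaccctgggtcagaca
Plin2, chr4:86670218-86670309, minus strand: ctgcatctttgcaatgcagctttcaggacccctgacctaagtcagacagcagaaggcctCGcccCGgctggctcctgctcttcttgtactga
Plin4, chr17:56109949-56110032, minus strand: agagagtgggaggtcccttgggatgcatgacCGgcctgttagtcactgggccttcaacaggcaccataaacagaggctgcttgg
Fitm2, chr2:163472630-163472879, minus strand: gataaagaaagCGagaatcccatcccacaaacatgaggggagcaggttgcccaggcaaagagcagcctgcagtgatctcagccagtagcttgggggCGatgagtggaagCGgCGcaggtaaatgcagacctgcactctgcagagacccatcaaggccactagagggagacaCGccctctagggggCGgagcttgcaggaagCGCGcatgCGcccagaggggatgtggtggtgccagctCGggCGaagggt
The stretch upstream of Plin1 held no CpG and that of Fitm2 held 11. Over the full 250 bases before each RefSeq start, the Plin1 window held 1 CpG, and 7.87% of all 32851 such windows held fewer. The Fitm2 window held 11 CpGs, with 64.4% of windows holding fewer, and the median window held 6. A window was found for 9 of the 10 genes, 13 windows in all, and none was found for Cidea. The nuclear receptor half-site AGGTCA, searched on both strands, was found upstream of Plin2, in 1 of 2 windows of Plin5 and in 1 of 3 windows of Bscl2, against 14.0% of all windows. Its direct repeat, AGGTCA, any 1 base and AGGTCA again, each copy also counting as a half-site, was in none of the 13 windows and in 0.0335% of all windows. These are letters in a window and not measured sites, and DNA methylation was not measured in the files used here.

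Library totals lay between 20973140 and 25606629 reads, and a count of 0 allows up to 3 reads, or 0.117 to 0.143 CPM (reads of a gene scaled to the total of its library), covering counting error only. Of the 10 genes, 9 passed the filter on low values (at least 0.5 CPM in at least 3 libraries) and were tested, and Fitm1 did not. Changes are log2 differences on the log2(CPM + 1) scale with their standard error (SE), and adjusted p-values are from limma over 15597 genes, called at 0.05. HFD_TKO replicate 1 and ND_WT replicate 3 stood apart from the other libraries of their groups (chi-square per degree of freedom of the reads 41.2 and 46.1 for HFD_TKO replicate 1, beside 7.06 between the other two, and 47 and 73.6 for ND_WT replicate 3, beside 18). Without ND_WT replicate 3 every call of the 9 tested genes stayed as it was. Without HFD_TKO replicate 1 the diet calls of Plin1 and Plin3 in TKO ended and every other call stayed. The sizes of changes that involve HFD_TKO shifted, and some of these are given below. The fat pad was sequenced in bulk, so fewer cells of a type and less RNA per cell cannot be told apart. Adipocyte markers were high in all groups: the 8 fixed markers (Adipoq, Lep, Retn, Cfd, Car3, Fabp4, Slc2a4, Adrb3) summed to 38520 to 49650 CPM in HFD_TKO, 16660 to 17790 CPM in HFD_WT, 56500 to 63610 CPM in ND_TKO and 48300 to 63150 CPM in ND_WT.

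Cidea was nearly absent from TKO fat under either diet. The gene (chromosome 18 of mm10, 67343604 to 67367785, plus strand) encodes a CIDE protein that is abundant in brown and beige fat and less so in white fat. On HFD it had 2, 2 and 3 reads in the HFD_TKO libraries, against 95, 62 and 120 reads in HFD_WT. On ND it had 0, 2 and 2 reads in ND_TKO, against 206, 242 and 171 reads in ND_WT. No TKO library held more than 3 reads, and no WT library held fewer than 62. Summed over libraries and scaled by depth, the level in TKO was 0.0277 of that in WT on HFD (7 against 277 reads, 95% interval 0.011 to 0.0578, exact binomial, counting error only) and 0.00635 of it on ND (4 against 619 reads, 0.00172 to 0.0163). Cidea passed the test in TKO against WT on HFD (adjusted p = 2.1e-06) and on ND (adjusted p = 2.1e-06). Because TKO levels lay at or below the floor, the fitted log2 changes of -2.11 and -3.31 are set by the added 1 CPM.

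In WT mice Cidea was also lower on the high-fat diet. It stood at 3.71, 2.74 and 5.19 CPM in HFD_WT, against 9.82, 11.2 and 7.80 CPM in ND_WT, with no overlap (log2 change -1.14, SE 0.18, adjusted p = 0.00018). Markers of brown and beige fat, the tissues richest in Cidea, are given beside it. Of 8 fixed markers (Ucp1, Dio2, Elovl3, Cox7a1, Cox8b, Otop1, Cpt1b, Prdm16) 7 were tested, and in TKO against WT on ND none was called. On HFD 2 of the 7 were higher and 1 was lower in TKO, against 15.2% and 31.6% of all tested genes. In WT 5 were higher and none lower on HFD than on ND, against 37.8% and 20.3%. Their sum was 30.9 to 71.8 CPM in HFD_TKO, 42.9 to 48.9 CPM in HFD_WT, 17.3 to 21.4 CPM in ND_TKO and 15.8 to 22.7 CPM in ND_WT, and Ucp1 reached at most 1.29 CPM, in HFD_WT replicate 1.

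Cidec, the other CIDE gene chosen, went the other way from Cidea in TKO fat on HFD. It encodes the protein (also called FSP27) that gives white adipocytes their large single droplet, and lies on chromosome 6, 113424634 to 113435760, on the minus strand. Cidec stood at 4616, 3528 and 3605 CPM in HFD_TKO, against 2053, 2047 and 1838 CPM in HFD_WT. All HFD_TKO libraries were above all HFD_WT libraries, and Cidec was higher by 0.98 (SE 0.15, adjusted p = 0.00028). Without HFD_TKO replicate 1 the difference was 0.85 (adjusted p = 0.000931). On ND Cidec stood at 5975, 4867 and 5834 CPM in ND_TKO, against 3742, 4150 and 4897 CPM in ND_WT. There the groups overlapped and the difference of 0.39 did not pass (95% interval 0.05 to 0.72, adjusted p = 0.16). With the high-fat diet Cidec fell by 1.10 in WT (SE 0.15, adjusted p = 7.7e-05) and by 0.51 in TKO (SE 0.15, adjusted p = 0.035). The call in TKO ended without HFD_TKO replicate 2 or 3 (adjusted p = 0.11 for each), ND_TKO replicate 1 (0.093) or 3 (0.12), or HFD_WT replicate 1 (0.056) or 2 (0.055), when no filter on low values was used (0.13), and when only these groups were fitted (0.072). Cideb, the liver-type CIDE gene, was low throughout, at 0.936 ± 0.511 CPM in HFD_TKO, 0.783 ± 0.583 CPM in HFD_WT, 0.551 ± 0.459 CPM in ND_TKO and 0.596 ± 0.521 CPM in ND_WT (SD, n = 3), and it was called in none of the 5 comparisons by limma (unadjusted p between 0.3 and 0.91).

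**Figure D1:**
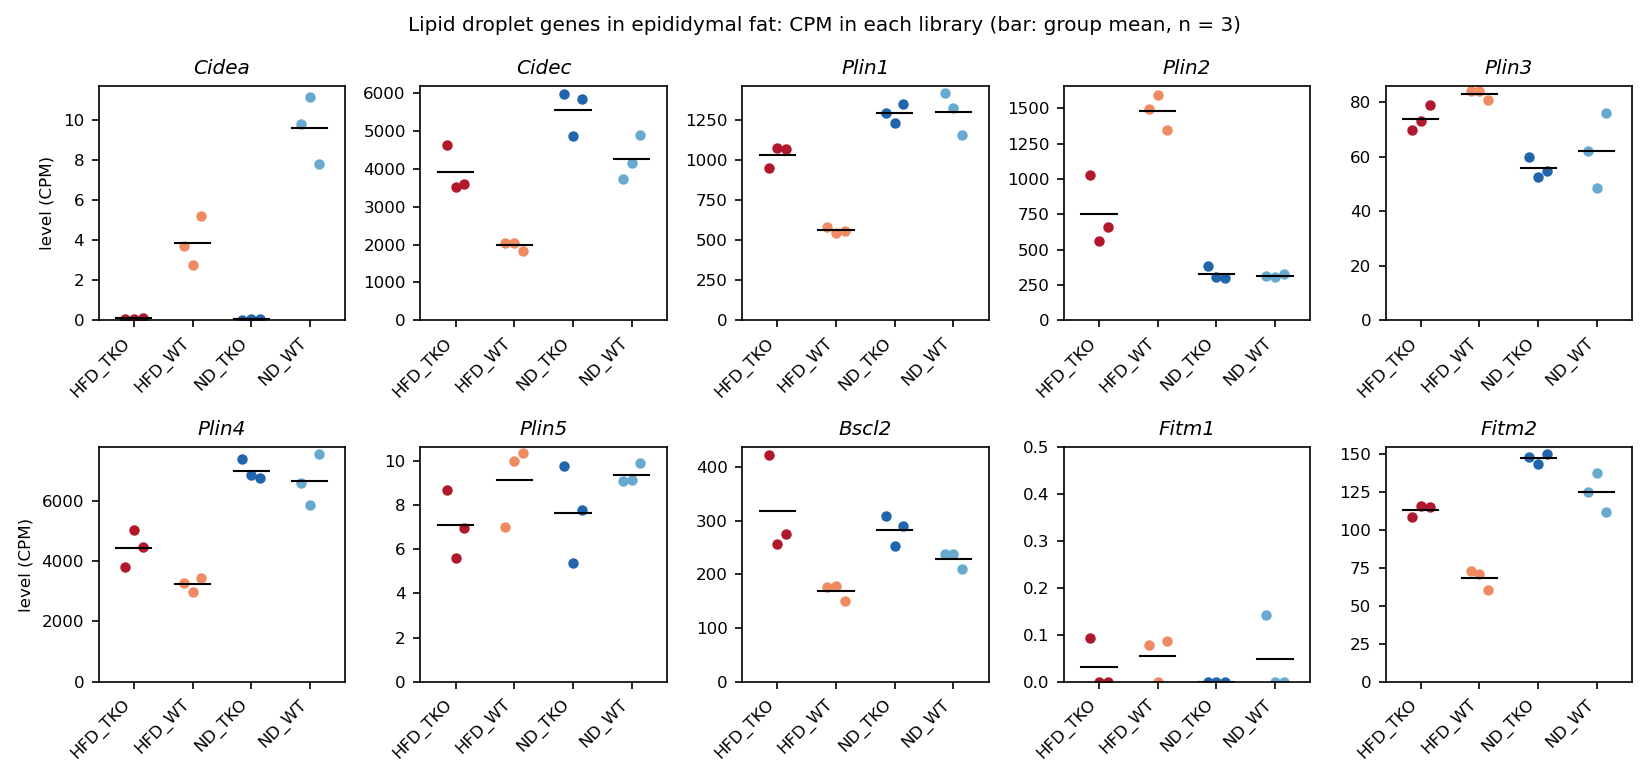
Level of each of the 10 lipid droplet genes in CPM (vertical axes from 0) in each of the 12 libraries; points are libraries and bars are group means. Cidea lies near 0 in all 6 TKO libraries, Plin2 is highest in HFD_WT (1349 to 1594 CPM), and Cidec, Plin1, Plin4, Bscl2 and Fitm2 are lowest there.

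Plin1 was lower in HFD_WT than in any other group. Perilipin 1 is the main droplet coat of adipocytes, where it holds back basal lipolysis and opens the droplet to lipases upon adrenergic stimulation; its gene lies on chromosome 7, 79720218 to 79732903, on the minus strand. Plin1 stood at 954.9, 1081 and 1074 CPM in HFD_TKO, against 585.7, 548.6 and 559.8 CPM in HFD_WT. On ND Plin1 stood at 1294, 1237 and 1353 CPM in ND_TKO, against 1422, 1325 and 1162 CPM in ND_WT. All HFD_TKO libraries exceeded all HFD_WT libraries by a wide margin, and the ND groups overlapped. The difference on HFD was 0.87 (SE 0.09, adjusted p = 1.4e-05). On ND it was -0.01 with a 95% interval from -0.21 to 0.20 (adjusted p = 0.99). In response to HFD Plin1 fell by 1.20 in WT (SE 0.09, adjusted p = 6.6e-07) and by 0.32 in TKO (SE 0.09, adjusted p = 0.03). The call in TKO ended without HFD_TKO replicate 1 (adjusted p = 0.089) or 3 (0.057), or ND_TKO replicate 1 (0.061) or 3 (0.11), when no filter on low values was used (0.056), and when only these groups were fitted (0.057).

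Plin2 moved against Plin1 and was the droplet gene with the largest rise on the high-fat diet among the 9 tested. Perilipin 2 coats small droplets in most cells that store lipid, and its gene lies on chromosome 4, 86648386 to 86670060, on the minus strand. Plin2 stood at 1031, 561.0 and 659.5 CPM in HFD_TKO, against 1494, 1594 and 1349 CPM in HFD_WT. On ND Plin2 stood at 382.6, 306.3 and 299.0 CPM in ND_TKO, against 314.7, 304.8 and 326.4 CPM in ND_WT. Every HFD_TKO library lay below every HFD_WT library and above every ND library, with replicate 1 the nearest to HFD_WT. In TKO against WT on HFD, Plin2 was lower by 1.02 (log2 change -1.02, SE 0.18, adjusted p = 0.00066), and without HFD_TKO replicate 1 the change was -1.28 (adjusted p = 1.3e-05). With the high-fat diet it rose by 2.22 in WT (SE 0.18, adjusted p = 9.3e-07) and by 1.15 in TKO (SE 0.18, adjusted p = 0.0022). Without HFD_TKO replicate 1 the rise in TKO was 0.89 (adjusted p = 0.00286). On ND the TKO difference was 0.05 (95% interval -0.34 to 0.45, adjusted p = 0.91).

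Macrophage markers moved in the same directions as Plin2. All 10 fixed macrophage markers (Adgre1, Cd68, Csf1r, Lyz2, Itgax, Trem2, Mrc1, Cd14, Fcgr1, Gpnmb) were lower in HFD_TKO than in HFD_WT, and all 10 were higher in HFD_WT than in ND_WT. Of all tested genes 31.6% were lower in the first comparison and 37.8% higher in the second. Their sum was 1119 to 1316 CPM in HFD_TKO, 6013 to 7579 CPM in HFD_WT, 568.1 to 896.9 CPM in ND_TKO and 759.0 to 1056 CPM in ND_WT, and no marker was at 0 reads in any group. Plin2 per 1000 CPM of the macrophage marker sum was 922, 481 and 501 CPM in HFD_TKO, against 219, 210 and 224 CPM in HFD_WT. Plin2 thus moved less than the macrophage marker sum between these groups. The 6 fibroblast and progenitor markers (Pdgfra, Dpp4, Pi16, Col1a1, Dcn, Lum) summed to 1430 to 1926 CPM in HFD_TKO, 3121 to 3734 CPM in HFD_WT, 1673 to 1978 CPM in ND_TKO and 1880 to 1946 CPM in ND_WT. The part of either cell type in the level of Plin2 was not tested.

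Plin4 was the perilipin gene with the highest level, both in CPM and per length. Perilipin 4 is a coat protein of adipocytes and muscle with a long run of repeated segments, and its gene lies next to Plin5 on chromosome 17 (56100591 to 56109803, minus strand). Plin4 stood at 3812, 5034 and 4481 CPM in HFD_TKO, against 3283, 2987 and 3429 CPM in HFD_WT. On ND Plin4 stood at 7371, 6833 and 6760 CPM in ND_TKO, against 6573, 5843 and 7532 CPM in ND_WT. The HFD groups did not overlap but were close, and the ND groups overlapped. Plin4 was higher by 0.45 in HFD_TKO (SE 0.15, adjusted p = 0.029), a call that ended without HFD_TKO replicate 2 (0.36, adjusted p = 0.115) or 3 (0.0737), or HFD_WT replicate 1 (0.0706) or 2 (0.11), and when no filter on low values was used (0.18). Without HFD_TKO replicate 1 the call stayed (0.56, adjusted p = 0.0125). On HFD against ND it fell by 1.03 in WT (adjusted p = 0.00011) and by 0.66 in TKO (adjusted p = 0.011), a call that ended when no filter was used (0.0921).

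Plin3 and Plin5 were called for genotype on neither diet, and only Plin3 was called for diet. Plin3, on chromosome 17 (56277476 to 56292873, minus strand), encodes a perilipin that cycles between the cytosol and new droplets in most tissues. It stood at 69.9, 73.4 and 78.9 CPM in HFD_TKO, against 84.1, 84.3 and 81.0 CPM in HFD_WT. On ND Plin3 stood at 59.9, 52.6 and 54.9 CPM in ND_TKO, against 62.0, 48.6 and 76.0 CPM in ND_WT. The HFD libraries of each genotype lay above the ND libraries of the same genotype. In WT the rise was 0.43 (adjusted p = 0.011) and in TKO it was 0.40 (adjusted p = 0.041). With TMM-scaled CPM, which corrects for a few very abundant genes, these were 0.27 (adjusted p = 0.0828) and 0.32 (0.0964), so both calls depended on the scaling. The call in TKO also ended when no filter was used (adjusted p = 0.0588) and when any of 9 single libraries was left out, all but ND_TKO replicate 1 and ND_WT replicates 2 and 3 (0.0541 to 0.124). Every HFD_TKO library lay below every HFD_WT library for Plin3, and the ND groups overlapped. The TKO difference in Plin3 was not called on either diet (log2 change -0.17, adjusted p = 0.31 on HFD and -0.13, 0.58 on ND).

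Plin5, on chromosome 17 (56111601 to 56117596, minus strand), encodes the perilipin of oxidative tissues such as heart and brown fat, where it tethers droplets to mitochondria. It stood at 8.65, 5.61 and 6.94 CPM in HFD_TKO, against 6.99, 10 and 10.3 CPM in HFD_WT. On ND Plin5 stood at 9.74, 5.38 and 7.78 CPM in ND_TKO, against 9.06, 9.13 and 9.90 CPM in ND_WT. The groups overlapped in every pairing by genotype or diet, and Plin5 was called in none of the 5 comparisons by limma, edgeR or DESeq2 (unadjusted limma p between 0.13 and 0.92). The 95% interval of its TKO difference ran from -0.77 to 0.11 on HFD and from -0.74 to 0.14 on ND.

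The make-up of the perilipin transcripts shifted with diet and genotype. Levels of different genes were set side by side as CPM per kb of exon (all annotated exons of a gene merged, GENCODE M21). On that scale Plin2 made up 17.6 ± 6.49% of the summed perilipin level in HFD_TKO and 37.3 ± 3.25% in HFD_WT, and 5.84 ± 0.55% in ND_TKO and 5.84 ± 0.326% in ND_WT (SD, n = 3). Plin4 made up 62.4 ± 6.06% in HFD_TKO, 49.6 ± 3.22% in HFD_WT, 75.6 ± 0.717% in ND_TKO and 74.5 ± 3.09% in ND_WT. Plin1 made up 18.1 ± 0.789% in HFD_TKO, 10.8 ± 0.218% in HFD_WT, 17.4 ± 1.07% in ND_TKO and 18.3 ± 2.94% in ND_WT. Plin3 and Plin5 together stayed below these genes, with Plin3 at most 1.99% and Plin5 at most 0.441% in any library. The Plin2 share in HFD_TKO was 24.8% in replicate 1 and 12.4% and 15.4% in replicates 2 and 3.

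**Figure D2:**
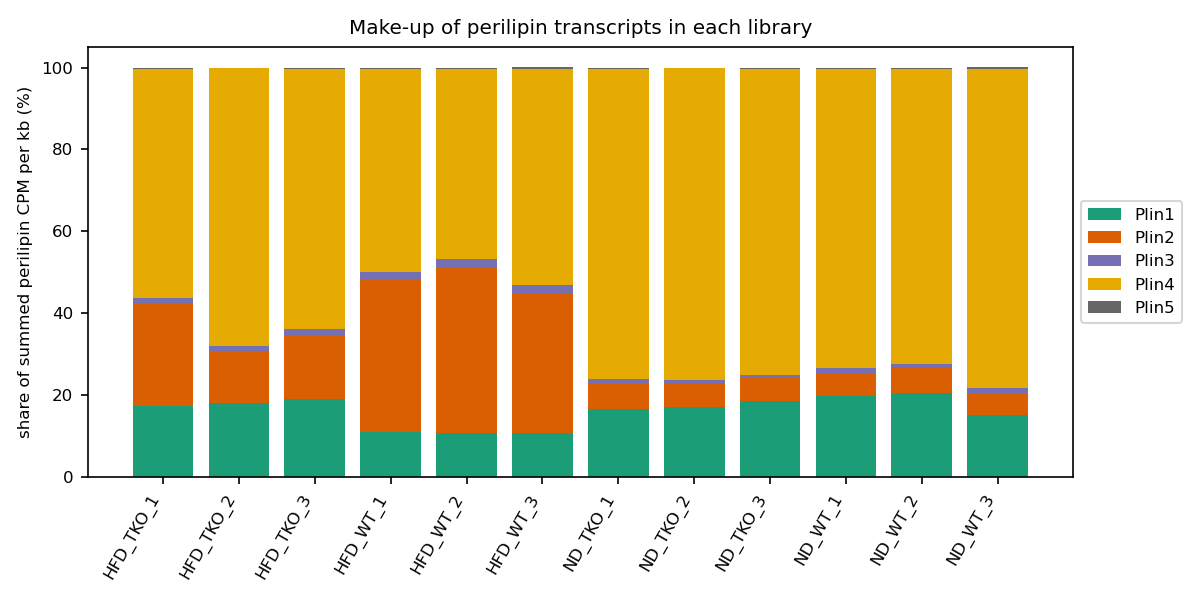
Share of each perilipin gene in the summed perilipin level (CPM per kb of exon, in percent) in each of the 12 libraries. Plin2 takes 34.2% to 40.7% in the HFD_WT libraries, 12.4% to 24.8% in HFD_TKO and 5.44% to 6.47% in the ND libraries of both genotypes.

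The ratio of Plin2 to Plin1 within a library does not depend on library scaling. It was 1.08, 0.519 and 0.614 in HFD_TKO, against 2.55, 2.91 and 2.41 in HFD_WT. On ND it was 0.296, 0.248 and 0.221 in ND_TKO, against 0.221, 0.23 and 0.281 in ND_WT. The HFD_TKO ratios lay between those of HFD_WT and those of the ND groups, without overlap. The log2 difference of the ratio was -1.90 for HFD_TKO over HFD_WT, 3.43 for HFD_WT over ND_WT and 1.47 for HFD_TKO over ND_TKO, each with p = 0.1 in a two-sided exact permutation test (adjusted p = 0.133 over 4 comparisons), the smallest p that 3 libraries against 3 allow. For ND_TKO over ND_WT it was 0.06 (p = 0.7, exact permutation test).

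Ordered by CPM per kb, Cidec led in every group, at 2110 ± 327 in HFD_TKO, 1067 ± 66.1 in HFD_WT, 2995 ± 325 in ND_TKO and 2297 ± 316 in ND_WT. Plin4 came next in every group. Plin1 and Plin2 followed, and their order differed: Plin2 was above Plin1 in HFD_WT (421 ± 35.0 against 122 ± 4.10 CPM per kb), and Plin1 was above Plin2 in ND_TKO (279 ± 12.5 against 93.8 ± 13.2) and in ND_WT (280.3 ± 28.3 against 89.8 ± 3.07). In HFD_TKO they stood at 223 ± 15.2 for Plin1 and 214 ± 70.6 for Plin2, which did not differ beyond their spread. Bscl2 came next, and Fitm2 and Plin3 lay below it, with Fitm2 above Plin3 except in HFD_WT. Cidea, Plin5 and Fitm1 were at the bottom, and Cidea exceeded Plin5 in ND_WT (8.60 ± 1.51 against 4.49 ± 0.224 CPM per kb), did not differ from it beyond the spread in HFD_WT (3.48 ± 1.11 against 4.37 ± 0.884), and lay far below it in both TKO groups.

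Of the 3 members that act in droplet formation at the ER, Bscl2 and Fitm2 were higher in HFD_TKO than in HFD_WT, and Fitm1 was too low to test. Bscl2 encodes seipin, whose loss causes congenital lipodystrophy in humans, and lies on chromosome 19, 8837467 to 8848683, on the plus strand. It stood at 422.5, 256.7 and 274.4 CPM in HFD_TKO, against 176.9, 177.6 and 150.9 CPM in HFD_WT. On ND Bscl2 stood at 308.6, 252.0 and 289.2 CPM in ND_TKO, against 238.1, 238.0 and 210.7 CPM in ND_WT. All TKO libraries exceeded all WT libraries of the same diet, with HFD_TKO replicate 1 well above the others. Bscl2 was higher by 0.88 in HFD_TKO (SE 0.16, adjusted p = 0.00077) and by 0.66 without that library (adjusted p = 0.000504). On ND the difference of 0.30 did not pass (95% interval -0.04 to 0.65, adjusted p = 0.29). With HFD feeding Bscl2 fell by 0.44 in WT (adjusted p = 0.032), and that call ended without HFD_WT replicate 1 (adjusted p = 0.0519) or 3 (0.111), or ND_WT replicate 1 (0.0855) or 2 (0.0819). In TKO the diet difference was 0.13 (adjusted p = 0.59) and -0.09 without HFD_TKO replicate 1 (adjusted p = 0.62). Exons of Bscl2 overlap those of Gng3 on the other strand over 6.75% of their bases, and those of a protein-coding locus on the same strand (AC129217.1) over 4.05%. The use of strand in counting was not given in the sources used here, and strand cannot separate the second overlap. A small part of the Bscl2 reads is therefore uncertain.

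Fitm2 encodes the FIT protein found in most tissues, which fat cells need to bud droplets from the ER, and lies on chromosome 2, 163466379 to 163472629, on the minus strand. It stood at 108.7, 115.8 and 114.8 CPM in HFD_TKO, against 73.0, 71.0 and 60.5 CPM in HFD_WT. On ND Fitm2 stood at 148.0, 143.6 and 149.8 CPM in ND_TKO, against 125.3, 137.2 and 111.9 CPM in ND_WT. The TKO libraries lay above the WT libraries on each diet. Fitm2 was higher by 0.73 on HFD (SE 0.09, adjusted p = 3.4e-05), and its difference of 0.24 on ND did not pass (95% interval 0.05 to 0.43, adjusted p = 0.13). On HFD against ND it fell by 0.86 in WT (SE 0.09, adjusted p = 5.3e-06) and by 0.38 in TKO (SE 0.09, adjusted p = 0.011). An antisense gene (2310001K24Rik) overlaps 5.72% of its exon bases.

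Fitm1, the FIT gene of skeletal muscle and heart (chromosome 14, 55575617 to 55576954, plus strand), was at the floor. It had 2, 0 and 0 reads in HFD_TKO, 2, 0 and 2 in HFD_WT, 0, 0 and 0 in ND_TKO and 3, 0 and 0 in ND_WT. No library exceeded 3 reads, so no fold is given. Of 6 skeletal muscle markers 2 passed the filter, Acta1 and Mylpf, and their sum with Ckm, Myh1, Myh4 and Tnnt3 was 31.8 to 34.0 CPM in HFD_TKO, 11.2 to 16.0 CPM in HFD_WT, 18.4 to 32.0 CPM in ND_TKO and 29.2 to 45.3 CPM in ND_WT, with Ckm and Myh4 at 0 reads in ND_TKO.

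Counted over the group, 5 of the 10 droplet genes were higher and 2 lower in TKO than in WT on HFD (9 tested), against 15.2% higher and 31.6% lower (46.7% called) among all tested genes. On ND none was higher and 1, Cidea, was lower, against 2.16% and 3.54% (5.7% called). In WT 2 were higher and 6 lower on HFD than on ND, against 37.8% and 20.3% (58.1% called). In TKO 2 were higher and 4 lower on HFD than on ND, against 16.2% and 5.9% (22.1% called). The median change of the 9 tested genes was 0.45, 0.05, -0.86 and -0.08 in these 4 comparisons, beside -0.10, -0.06, 0.13 and 0.07 for all tested genes. The comparison of TKO with WT on HFD and that of HFD with ND in WT share the HFD_WT libraries, so opposite changes in them are not separate observations. TMM scaling moved the median change of all genes by 0.11 in TKO against WT on HFD and by -0.14 in HFD against ND in WT. Beyond Plin3, no call of the 10 genes depended on it in these 4 comparisons. The count of 6 genes called for the diet in TKO was 3 without HFD_TKO replicate 3 or without ND_TKO replicate 3, and 2 when no filter was used.

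**Figure D3:**
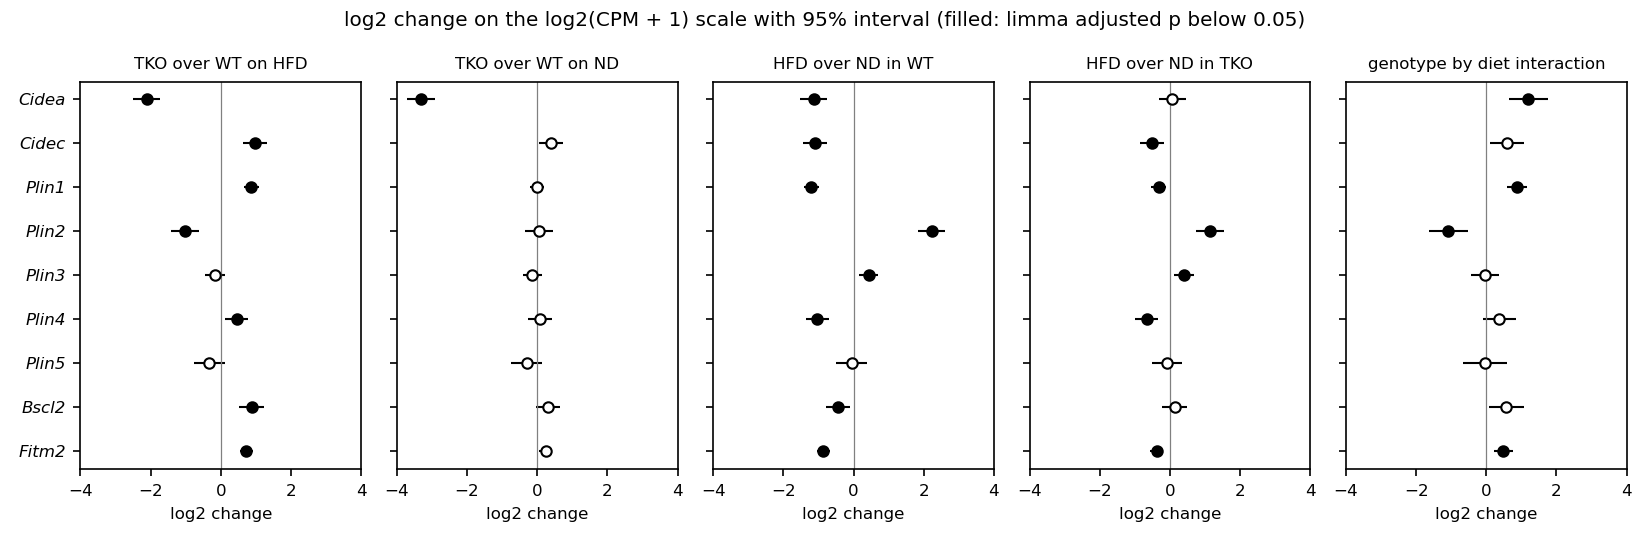
Log2 change of each of the 9 tested droplet genes on the log2(CPM + 1) scale (horizontal axis) in each comparison and for the interaction, with its 95% interval; filled points passed the test. On HFD Cidea and Plin2 are lower in TKO and Cidec, Plin1, Plin4, Bscl2 and Fitm2 higher, whereas on ND only Cidea passed.

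By limma's test the TKO effect differed between diets for 4 of the 9 tested genes, 3 with a positive difference (effect on HFD minus effect on ND) and 1 with a negative one, against 9.94% and 18.8% (28.7% called) of all tested genes. The difference was 0.88 for Plin1 (SE 0.13, adjusted p = 5e-04), -1.08 for Plin2 (SE 0.26, adjusted p = 0.0084) and 0.49 for Fitm2 (SE 0.12, adjusted p = 0.012). Without HFD_TKO replicate 1 these were 0.94 (adjusted p = 0.000443), -1.33 (0.000212) and 0.51 (0.0132). For Cidea the difference over all libraries was 1.20 (adjusted p = 0.0039), and it was larger but not called with edgeR (2.16, adjusted p = 0.0686), DESeq2 (2.21, 0.077) or limma-voom (2.34, 0.109), where TKO levels near 0 reads are not bounded by the added 1 CPM. On the log2(CPM + 1) scale Cidea lay at the floor in TKO on both diets, with a diet change of 0.06 (limma adjusted p = 0.84). The difference of 1.20 thus mostly repeats the diet change of -1.14 in WT, and a diet dependence of the TKO effect cannot be read from it. For Cidec the difference of 0.59 did not pass (adjusted p = 0.063) but passed with edgeR (0.0421), DESeq2 (0.0132) and limma-voom (0.0422). For Bscl2 (0.58, adjusted p = 0.077) it passed with DESeq2 (0.045) and without HFD_TKO replicate 2 (0.0351), and for Plin4 (0.37, adjusted p = 0.23) with DESeq2 (0.0101). Without HFD_TKO replicate 1 the limma difference fell to 0.47 for Cidec (adjusted p = 0.108) and to 0.35 for Bscl2 (0.0851). For Plin4 it was then 0.48 (adjusted p = 0.104).

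Set against the adipocyte markers of the same library, the droplet genes that fell with the high-fat diet in WT fell less than the marker sum did. Plin1 per 1000 CPM of the summed adipocyte markers was 24.8, 22.2 and 21.6 CPM in HFD_TKO, against 32.9, 32.5 and 33.6 CPM in HFD_WT, and 21.5, 21.9 and 21.3 CPM in ND_TKO, against 24.9, 21.0 and 24.1 CPM in ND_WT. Fitm2 per 1000 CPM of the same sum was 2.50 ± 0.277 CPM in HFD_TKO, 3.98 ± 0.305 CPM in HFD_WT, 2.45 ± 0.0943 CPM in ND_TKO and 2.23 ± 0.0771 CPM in ND_WT. On this scale the HFD_WT libraries were the highest for both genes, the reverse of their order in CPM. Plin4 was at 97.5 ± 6.63 in HFD_TKO, 189 ± 15 in HFD_WT, 117 ± 8.95 in ND_TKO and 121 ± 32.1 in ND_WT. Cidec was at 88.3 ± 27.3 in HFD_TKO, 116 ± 5.48 in HFD_WT, 92.4 ± 6.59 in ND_TKO and 77.6 ± 20.6 in ND_WT. Bscl2 was at 7.25 ± 3.22, 9.84 ± 0.738, 4.71 ± 0.362 and 4.1 ± 0.303 in the same order. For Cidec and Bscl2 every HFD_WT library lay above every ND_WT library, but the HFD groups overlapped. HFD_TKO replicate 1 lay within the HFD_WT range for Cidec and above it for Bscl2. The marker sum is dominated by few genes, and Fabp4 alone made up 32.1 ± 3.24% of it in HFD_TKO and 49.6 ± 1.33% in HFD_WT. Car3 stood at 23720 ± 4987 CPM in HFD_TKO and 3901 ± 312 CPM in HFD_WT. With HFD in WT the log2 change was -2.52 for Car3 and -0.89 for Fabp4 (SE 0.19). Beside Fabp4 alone, Plin1 (-1.20), Cidea (-1.14), Cidec (-1.10) and Plin4 (-1.03) fell more, and Fitm2 (-0.86) and Bscl2 (-0.44) less. The comparison thus depends on the marker chosen. In TKO against WT on HFD 6 of the 8 markers were higher and none lower, against 15.2% and 31.6% of all tested genes. In WT 7 were lower and 1, Lep, was higher on HFD, against 20.3% and 37.8%. In TKO against WT on ND 3 were lower, Cfd (-2.14), Retn (-1.02) and Slc2a4 (-0.60), and none higher, against 3.54% and 2.16%. The part of adipocyte content in the droplet gene levels was not tested.

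**Figure D4:**
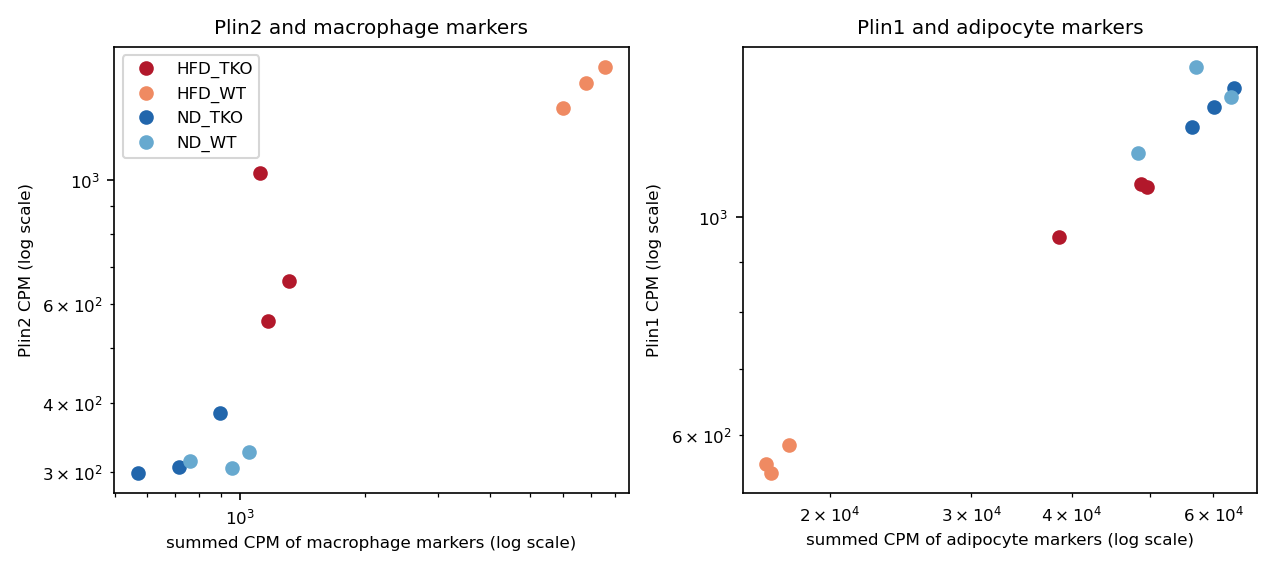
Plin2 against the summed macrophage markers and Plin1 against the summed adipocyte markers, all in CPM on log axes, with 1 point per library coloured by group. HFD_WT lies alone at 6013 to 7579 CPM of macrophage markers and 16660 to 17790 CPM of adipocyte markers, and HFD_TKO replicate 1 has the highest Plin2 of its group (1031 CPM) at the lowest macrophage sum (1119 CPM).

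Other genes of the droplet surface went both ways. Of 16 such genes 15 were tested, and in TKO against WT on HFD 6 were higher and 4 lower, against 15.2% and 31.6% of all tested genes. Mettl7b, a methyltransferase-like protein of droplets, was at 14.9 ± 1.09 CPM in HFD_TKO and 5.33 ± 0.749 CPM in HFD_WT (1.33, adjusted p = 2.6e-05). Cav1, the caveolin gene, was at 3939 ± 23.8 CPM in HFD_TKO and 2024 ± 62.8 CPM in HFD_WT (0.96, adjusted p = 2.6e-05). Hilpda, a hypoxia-inducible inhibitor of the lipase ATGL, was instead highest in HFD_WT, at 16.7, 6.98 and 7.81 CPM in HFD_TKO, against 23.7, 25.5 and 21.6 CPM in HFD_WT (-1.19, adjusted p = 0.0015). In WT 4 of the 15 were higher and 7 lower on HFD than on ND, against 37.8% and 20.3% of all tested genes. These were led by Mettl7a1 (-2.13, adjusted p = 8.7e-07) and Hilpda (1.62, adjusted p = 0.00011). On ND 2 were higher and 2 lower in TKO, against 2.16% and 3.54% of all tested genes. In TKO 1 was higher and 2 were lower on HFD than on ND, against 16.2% and 5.9%.

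All 5 lipase genes of the fixed list were called in TKO against WT on HFD, against 46.7% of all tested genes. Pnpla2 (ATGL, the main triglyceride lipase of fat), Lipe (hormone-sensitive lipase), Mgll and Pnpla3 were higher in HFD_TKO than in HFD_WT, and Lipa was lower. Lipa, the acid lipase of lysosomes, stood at 149.5 ± 11.3 CPM in HFD_TKO and 714 ± 34.7 CPM in HFD_WT (-2.25, adjusted p = 1.9e-07), and Pnpla2 stood at 1488 ± 190.3 and 661.9 ± 31.8 CPM in the same groups (1.16, adjusted p = 5.1e-05). With HFD feeding in WT, 4 of the 5 were lower and Lipa was higher (2.99, adjusted p = 1.4e-08). Of all tested genes 20.3% were lower and 37.8% higher in that comparison. Pnpla3 was higher by 1.40 in HFD_TKO (adjusted p = 5.2e-05). On ND it was instead lower in TKO (-0.69, adjusted p = 0.044), the 1 lipase gene called there, against 3.54% lower and 2.16% higher. In TKO 2 were higher on HFD than on ND, Pnpla3 (0.98, adjusted p = 0.0038) and Lipa (0.77, 0.0029), and 2 were lower, against 16.2% and 5.9%.

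Of 14 tested genes of droplet assembly and triglyceride synthesis at the ER, 6 were higher and 2 lower in HFD_TKO than in HFD_WT. The shares of all tested genes were 15.2% and 31.6%. The phosphatidate phosphatase gene Lpin1 was higher by 1.12 (adjusted p = 1.2e-06), the acyltransferase gene Dgat1 by 0.93 (adjusted p = 0.00092) and Gpat4 by 0.87 (adjusted p = 0.00061). Lpin1 was also the 1 gene of this list called on ND (0.53, adjusted p = 0.0044), at 1080 ± 72.6 CPM in ND_TKO and 745.3 ± 55.0 CPM in ND_WT. Of all tested genes 5.7% were called there. On HFD against ND, 4 were higher and 5 lower in WT, against 37.8% and 20.3% of all tested genes. In TKO 4 were higher and 5 lower, against 16.2% and 5.9%. Tmem159, whose product partners seipin in droplet formation, fell by 1.22 in WT (adjusted p = 1.6e-05) and by 0.79 in TKO (adjusted p = 0.0037).

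Of 12 regulators known to act on droplet genes, 8 were higher and 1 lower in HFD_TKO than in HFD_WT. The shares of all tested genes were 15.2% and 31.6%. Pparg, the adipocyte master regulator that drives Cidec and Plin1, stood at 276.6, 217.0 and 211.8 CPM in HFD_TKO, against 174.8, 162.4 and 171.6 CPM in HFD_WT (0.46, adjusted p = 0.0037). On ND Pparg stood at 218.0, 254.8 and 250.2 CPM in ND_TKO, against 266.4, 293.0 and 250.2 CPM in ND_WT (-0.16, adjusted p = 0.4). Mlxipl, the carbohydrate-responsive factor, was higher by 1.16 on HFD (adjusted p = 2.1e-05) and lower by 1.04 on ND (log2 change -1.04, adjusted p = 0.0011). In WT 2 of the 12 were higher and 8 lower on HFD than on ND, against 37.8% and 20.3% of all tested genes. In TKO 2 were higher and none lower, against 16.2% and 5.9%.

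Across the 12 libraries, which share the same 4 groups, the genes with levels most like Cidea were Kcnj15 (Pearson r = 0.98), Abcd4 (0.97) and Ucp3 (0.97). Those most like Plin1 were Mfn2 (r = 0.9952), Adrb3 (0.9940) and Clpb (0.9935). Those most like Plin2 were Ranbp1 (r = 0.9938), Srxn1 (0.9933) and Lacc1 (0.9929). Those most like Plin5 were Tmem39b (r = 0.83), Hscb (0.80) and Trib3 (0.79). Plin5 thus had no close match, whereas Plin1 and Plin2 each did, and such values reflect differences between groups as well as within them. Among the droplet genes, Plin1 correlated with Fitm2 at 0.96, with Cidec at 0.90 and with Plin2 at -0.94 over the same libraries.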

How the data were processed

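Expression was measured by RNA-seq in 12 eWAT libraries, 3 per group, assigned from their titles. The deposited table gives CPM per gene and library, per the file headers. The build mm10 and the tools STAR 2.7.3a, featureCounts 2.0.0 and DESeq2 were taken per the submitters' processing notes, which state no role here. The deposited CPM values were whole reads plus 0.01 read, scaled per library, and 100% came out whole within 0.05 read. The table held 3 rows without a symbol (0.0313% to 0.0679% of CPM), which were left out.

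limma 3.58.1 (R 4.3.3) with a mean-variance trend was fitted to log2(CPM + 1) of the 15597 genes with at least 0.5 CPM in at least 3 libraries, with a mean for each of the 4 groups and 8 residual degrees of freedom. P-values were adjusted by Benjamini-Hochberg over all tested genes and called at 0.05. The + 1 understates changes of low genes. Replicates of every group differed by more than sampling noise (chi-square per degree of freedom 6.31 to 73.6). The pipeline was tested on simulated data.

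Alternatives were pseudocounts of 0.25 and 5, no filter, a filter of 1 CPM in 6 libraries, TMM scaling, edgeR 4.0.16, DESeq2 1.42.0 and limma-voom on the recovered reads (edgeR called 47.1% of genes for TKO against WT on HFD and 5.44% on ND, and 57% for HFD against ND in WT and 18.4% in TKO), only the groups compared, a replicate block, and leaving out each library. Genes were named by rule: all 10 members, up to 3 called genes per context list and comparison, Cideb, Pparg, cell type markers, and the 3 genes most correlated with a member. The surface list held Cideb, G0s2, Hilpda, Hsd17b11, Hsd17b13, Aup1, Aifm2, Mettl7a1, Mettl7b, Ldah, Faf2, Cavin1, Cav1, Rdh10, Clstn3 and Abhd5. The ER list held Tmem159 (also searched as Ldaf1), Rab18, Zfyve1, Acsl3, Pcyt1a, Gpat3, Gpat4, Agpat2, Lpin1, Dgat1, Dgat2, Spast, Snx14 and Vps13c. The regulators were Pparg, Ppara, Cebpa, Nr1h3, Esrra, Ppargc1a, Ppargc1b, Prdm16, Mlxipl, Srebf1, Tfeb and Rxra. Of the other markers, 0 of 5 mesothelial (Msln, Upk3b, Wt1, Krt19, Lrrn4) and 0 of 5 endothelial genes (Pecam1, Cdh5, Kdr, Tie1, Emcn) were called in TKO against WT on HFD, 0 of 6 fibroblast genes (Pdgfra, Dpp4, Pi16, Col1a1, Dcn, Lum) were higher and 4 lower, and of 6 epididymal genes (Crisp1, Lcn5, Lcn8, Rnase9, Adam7, Spink13) 1 passed the filter and was not called. Among all tested genes 15.2% were higher and 31.6% lower in that comparison. The members and lists were chosen with earlier results of these data known. Gene positions and exon lengths came from GENCODE M21 (GRCm38), and upstream sequences from RefSeq.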

Additional observations from a re-analysis of the deposited data

Results flagged for a closer look

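The TKO effect differed between diets by limma's test for 4 droplet genes. Taken as HFD minus ND, the difference was 1.20 for Cidea (adjusted p = 0.0039), 0.88 for Plin1 (adjusted p = 5e-04), -1.08 for Plin2 (adjusted p = 0.0084) and 0.49 for Fitm2 (adjusted p = 0.012). For Plin1 and Plin2 the TKO difference on ND was -0.01 and 0.05, beside 0.87 and -1.02 on HFD. Cidea was lower in TKO on each diet, and its difference was larger but not called with edgeR (2.16), DESeq2 (2.21) and limma-voom (2.34). With TKO levels at the floor on both diets, the limma difference of Cidea mostly repeats its diet change in WT (-1.14).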

How the results depend on the processing

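Of 45 member changes tested, 26 were called. Of these, none reversed under the 22 alternatives, 18 kept their direction and call in every one, and 8 lost the call in at least 1. The number of members called stayed within 6 to 7 (TKO on HFD), at 1 (TKO on ND) and within 7 to 8 (HFD in WT) and 4 to 6 (interaction). For HFD in TKO it was 6, and 2 with no filter (20566 genes tested), where the percent of all tested genes called was 14.8, and 3 to 6 when 1 library was left out. The percent of all tested genes called for TKO on ND was 5.7, against 3.65 with no filter, 9.74 with DESeq2, 1.8 when only these groups were fitted, and 2.24 to 11.9 when 1 library was left out (11.9 without ND_WT replicate 3). For HFD in TKO it was 22.1, and 11 to 27.5 when 1 library was left out. The log2 change of Cidea, near the floor in TKO, ran from -5.04 to -0.79 for TKO on HFD and from -7.25 to -1.52 on ND over the alternatives, pseudocounts included. The changes that reversed had not been called. Plin1 in TKO on ND was 0.053 with TMM-scaled CPM, 0.051 with edgeR, 0.049 with DESeq2 and 0.053 with limma-voom, and -0.085 to 0.060 when 1 library was left out. The interaction of Plin3 was 0.047, 0.065, 0.063 and 0.048 in the same order, and that of Plin5 was 0.042, 0.0073, 0.0075 and 0.059, and when 1 library was left out they ran from -0.19 to 0.13 and from -0.23 to 0.14. With 1 library left out, TKO differences on ND ran from -0.059 to 0.12 for Plin2, -0.30 to 0.020 for Plin3 and -0.011 to 0.17 for Plin4, and diet differences from -0.14 to 0.11 for Plin5 in WT, -0.28 to 0.092 for Plin5 in TKO and -0.089 to 0.27 for Bscl2 in TKO. The cause was not tested. Over all groups, libraries with the same replicate number did not as a rule deviate together (5 of 18 correlations over 0.1, from -0.50 to 0.56, and 0 of 12 libraries correlated best with their own number in every other group), so the numbers were not used as pairs. Between HFD_TKO and ND_TKO each library did correlate best with its own number (0.39, 0.56 and 0.12). With 3 libraries per group this check cannot settle a pairing within TKO. With a replicate block 7, 1, 8, 5 and 5 members were called in the order of comparisons used above with the interaction last. The diet change of Plin1 in TKO was then no longer called (adjusted p = 0.0504) and the interaction of Bscl2 was (0.58, adjusted p = 0.0468), and no other call of a member changed. Among members Cidea and Fitm1 were limited by depth.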

Other observations

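HFD_TKO replicate 1 had the highest Plin2 (1031 against 561.0 and 659.5 CPM in replicates 2 and 3), Bscl2 (422.5 against 256.7 and 274.4 CPM), Cidec (4616 against 3528 and 3605 CPM) and Hilpda (16.7 against 6.98 and 7.81 CPM) of its group. In the same library Plin1 and Plin4 were the lowest of the group (954.9 and 3812 CPM), and the adipocyte markers summed to 38520 CPM, against 48750 and 49650 CPM in the others. Its brown and beige markers summed to 71.8 CPM, against 36.1 and 30.9 CPM, and its mesothelial markers to 37.5 CPM, against 173.8 and 157.7 CPM. Groups of 3 are too small for an outlier test, and these genes were chosen after their values were seen.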
